A study of Mus musculus with 2 samples.

Results

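The genes described here encode the enzymes that attach ubiquitin to proteins and the main enzymes that take it off again: activating enzymes (E1), conjugating enzymes (E2), ubiquitin-specific proteases (USP) and ubiquitin C-terminal hydrolases (UCH). They were chosen by gene symbol alone, as every probe whose platform symbol begins with Ube2 and a letter, with Usp or Uchl and a digit, or is Uba1 to Uba7, leaving out Ube2c. This gave 93 of the 19057 genes on the array, read by 203 probes. They were 3 E1, 33 E2, 53 USP and 4 UCH symbols. Of these symbols 4 do not name an enzyme of these classes: Usp6nl encodes a GTPase-activating protein, Ube2cbp a ubiquitin ligase, Ube2d-ps is a pseudogene and Usp46os2 a transcript from the opposite strand.

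The study compared lens epithelium with lens fibers of wild-type mouse embryos at E12.5, with 1 Illumina array for each tissue. The labels state neither the strain, nor the method of separating the tissues, nor any pooling of embryos. With 1 array per tissue there was no replicate check, so no test was made and every difference below is a difference between 2 arrays. In bulk RNA, fewer cells of a type and less RNA per cell cannot be told apart.

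Ubiquitin is activated by an E1, passed to an E2 and placed on a substrate with the help of a ligase (E3), and the linkage of the chain that is built decides whether the protein is degraded or changes its partners. Deubiquitinating enzymes cut the chains, rescue substrates and recycle ubiquitin. Lens epithelial cells divide, whereas fiber cells leave the cell cycle, elongate, fill with crystallins and later clear their organelles, and the ubiquitin pathway has been studied in the lens for its part in both the cell cycle and protein turnover.

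Promoter sequence is shown for the enzymes with the largest ratios among those measured on both arrays, 2 in each direction, because the ratios of these 4 are measured on both sides. Each line gives the 200 bases before the first listed start, 5′ to 3′ on the gene's strand, from RefSeq on GRCm38.p6, and capitals mark the GC box GGGCGG on either strand.
Usp10: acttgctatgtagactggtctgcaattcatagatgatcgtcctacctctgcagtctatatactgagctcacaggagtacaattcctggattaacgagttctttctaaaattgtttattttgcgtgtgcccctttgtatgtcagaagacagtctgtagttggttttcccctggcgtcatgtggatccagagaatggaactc
Ube2e2: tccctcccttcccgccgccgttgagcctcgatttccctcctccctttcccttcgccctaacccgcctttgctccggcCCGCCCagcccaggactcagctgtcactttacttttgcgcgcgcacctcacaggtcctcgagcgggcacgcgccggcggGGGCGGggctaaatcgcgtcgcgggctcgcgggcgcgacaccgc
Usp7: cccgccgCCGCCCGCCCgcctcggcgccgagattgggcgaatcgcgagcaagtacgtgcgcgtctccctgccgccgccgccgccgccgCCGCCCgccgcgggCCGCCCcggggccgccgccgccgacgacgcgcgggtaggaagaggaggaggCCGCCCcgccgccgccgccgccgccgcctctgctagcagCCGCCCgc
Usp37: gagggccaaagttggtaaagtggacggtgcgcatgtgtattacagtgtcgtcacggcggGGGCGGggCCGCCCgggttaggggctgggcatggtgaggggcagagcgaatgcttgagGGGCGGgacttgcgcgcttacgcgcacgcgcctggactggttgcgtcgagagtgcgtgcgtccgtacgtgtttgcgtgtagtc
The Usp10 window lies at chr8:119910160-119910359 on the plus strand, has a GC content of 43% and holds no GC box. The Ube2e2 window lies at chr14:18893772-18893971 on the minus strand, is the first of 2 listed, and holds 2 boxes at a GC content of 70.5%. The Usp7 window lies at chr16:8738343-8738542 on the minus strand and holds 6 boxes at 84.5%. The Usp37 window lies at chr1:74505822-74506021 on the minus strand and holds 3 boxes at 65%.

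Values are normalized intensities in array units. A floor for each array was taken from 1580 probes of 1308 genes regarded as silent in lens, such as odorant receptors, as their 95th percentile: 44.6 in epithelium and 32.1 in fibers, and a gene above the floor on at least 1 array is called measured. A gene above it on 1 array only has a bound against the other array's floor, written "at least". Each gene was read from the probe with the highest mean over both arrays. Among 32 silent probes that exceeded both floors the log2 ratio had an SD of 0.84 and a median of -0.49. The floors that picked them were unequal, with a log2 ratio of -0.47, so this median cannot show a lean of silent probes. Of 472 genes with several probes above both floors 32.2% had probes that differed by 2-fold or more. A difference near 2-fold is thus close to the disagreement seen between probes.

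The arrays carried their labels. Of 13 lens fiber markers 12 were measured and 11 were 2-fold or more higher in fibers, with Crybb1, a beta crystallin, at 183 in epithelium and 3389 in fibers. Of 9 lens epithelium markers 8 were measured and 6 were higher in epithelium, with Pax6, a transcription factor of the eye, at 195 and 69.1. Foxe3 was below the floor on both arrays and Dkk3 went the other way, at 116 in epithelium and 549 in fibers. Markers of other tissues were also present: the summed level of 11 erythroid genes was 3790 in epithelium and 2720 in fibers, of 7 retina genes 1324 and 173, of 11 periocular mesenchyme genes 314 and 81.2, and of 12 neuron genes 338 and 158. Only 1 of the retina genes, Sfrp2, 1 of the mesenchyme genes, Tfap2b, 2 of the neuron genes and 4 of the erythroid genes were measured, and Gata1, Klf1 and Alas2 were below the floor on both arrays. The part of such cells in the results was not tested.

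Of the 93 genes 48 were measured, 27 on both arrays, 19 in fibers only and 2 in epithelium only, and 45 were below the floor on both. Over all genes 33.9% were measured, and of these 6451 genes 2308 were above the floor in fibers only and 1157 in epithelium only. Of the 48 enzymes, 9 (18.8%) were 2-fold or more higher in fibers, where the share over all 6451 measured genes was 15.5%. The other direction held 5 (10.4%), against 18.5% of all measured genes. The all-gene shares depended on the lower floor in fibers. With 44.6 as the floor of both arrays they were 17.6% in fibers and 15.8% in epithelium. The enzymes' median log2 ratio of fibers over epithelium was 0.12, and that of all measured genes was 0.00. The brightest value of any enzyme was 445, and 8.31% of all measured genes were brighter.

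**Figure D1:**
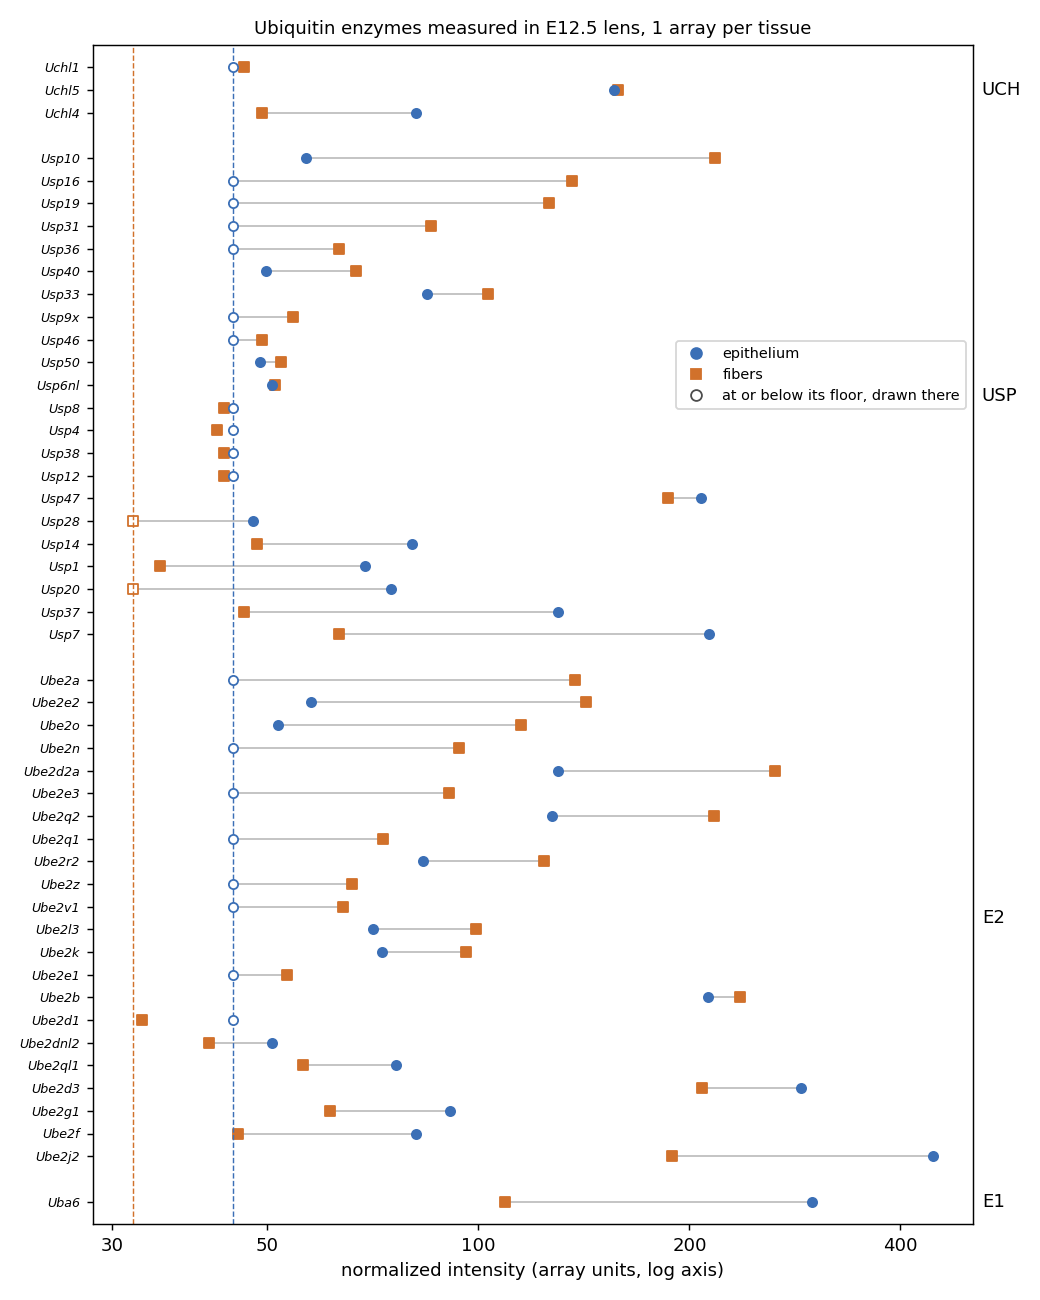
Normalized intensity (log axis) of the 48 measured enzymes in epithelium (circles) and fibers (squares), 1 array each, ordered by class and ratio. Open symbols are values at or below the floor of their array (dashed lines, 44.6 and 32.1) and are drawn there; Ube2j2 in epithelium is highest at 445.

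Only 1 of the 3 activating enzymes was measured. Uba1, also an activating enzyme covered by the rule, was not among the 3, so its level is not known here. Uba6, which activates both ubiquitin and the modifier FAT10, read 299 in epithelium and 109 in fibers, 2.74-fold higher in epithelium. A second Uba6 probe, at 8.94 and 14.2, was below both floors. The dedicated conjugating enzyme of Uba6, Ube2z, went the other way, at 15.8 in epithelium, below the floor, and 66.0 in fibers, at least 1.48-fold. Uba3, the catalytic subunit of the NEDD8-activating enzyme, and Uba7, the activating enzyme for ISG15, were below the floor on both arrays, with Uba3 in fibers at the floor itself.

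More conjugating enzymes passed 2-fold towards fibers than towards epithelium. Of 33 genes 22 were measured, 14 on both arrays and 8 in fibers only. Of the 22, 6 (27.3%) were 2-fold or more higher in fibers and 1 (4.55%) in epithelium, against 15.5% and 18.5% of all measured genes. The 8 measured in fibers only could not point to epithelium. Over the 14 measured on both arrays 3 were higher in fibers and 1 in epithelium. Of all 2986 genes measured on both arrays 426 were higher in fibers and 519 in epithelium. The median log2 ratio of the 14 was 0.27, and that of the 2986 genes was -0.19. With 44.6 as the floor of both arrays 21 conjugating enzymes were measured, 6 (28.6%) higher in fibers and 1 (4.76%) in epithelium. All measured genes then had 17.6% and 15.8%, and a median of -0.06 over those above it on both arrays. With the floor at the 99th percentile 13 were measured, 1 was higher in each direction and the median was 0.06, so the difference in counts was gone. Scaling both arrays to 18 measured housekeeping genes moved all genes towards epithelium. The conjugating enzymes then had 0 higher in fibers and 6 (27.3%) in epithelium, with a median of -0.03, against 4.64% and 42.5% of all measured genes and a median of -0.56.

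Among the broad-activity conjugating enzymes, which serve many RING ligases, 8 of 9 were measured. Of these 3 were 2-fold or more higher in fibers, where the share of all measured genes was 15.5%. Ube2e2 read 57.7 in epithelium and 142 in fibers, 2.47-fold. Ube2d2a read 129.9 and 265, 2.04-fold. Ube2e3 was below the floor in epithelium and read 90.8 in fibers, at least 2.04-fold. A second Ube2e3 probe, at 15.8 and -2.87, was below both floors. Ube2d3, a close relative of these 3, went the other way, at 289 in epithelium and 208.5 in fibers. The log2 ratio of Ube2d3 was -0.47, smaller in size than the SD of the silent probes. A second Ube2d3 probe read 4.93 and 73.0. The members of this family are near-identical in sequence, and which of them a probe reads was not checked here.

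Ube2a and Ube2b are the mouse homologs of yeast RAD6, which ubiquitinates histone H2B and acts in DNA damage tolerance. Ube2a read 12.9 in epithelium, below the floor, and 137 in fibers, at least 3.08-fold. Ube2b read 212 and 236, a log2 ratio of 0.15, but a second Ube2b probe read 10.9 and 225.6, at least 5.06-fold higher in fibers. These probes were both bright in fibers and differed in epithelium, and the remaining Ube2b probe, at 23.0 and -5.92, was below both floors.

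Ube2n, which builds K63-linked chains with a Ube2v partner, read 24.9 in epithelium, below the floor, and 93.9 in fibers, at least 2.10-fold. Its second probe, at 29.9 and 33.2, gave no direction. The partner Ube2v1 read 0.90 and 64.1, at least 1.44-fold. Ube2v2 was below the floor on both arrays. Ube2k, which builds K48-linked chains, depended on the probe: the one with the higher mean read 73.0 and 96.0, 1.31-fold higher in fibers, and another read 3.90 and 105, at least 2.36-fold.

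Ube2o, a large enzyme with both conjugating and ligase activity that clears proteins from maturing red cells in mouse, read 51.8 in epithelium and 115 in fibers, 2.22-fold higher in fibers. Of the 4 measured erythroid markers Hbb-bs read 3458 and 2458.5, Hbb-bt 142 and 7.07, Hbb-y 121 and 124 and Hba-a1 14.8 and 76.7, and their part in the Ube2o value was not tested. Ube2j2, a membrane-anchored enzyme of endoplasmic reticulum-associated degradation, was the 1 conjugating enzyme past 2-fold in the other direction, at 445 in epithelium and 189 in fibers, 2.36-fold. The other Ube2j2 probes, at 9.92 and 16.2 and at 7.93 and 4.07, were below both floors. Of the same pathway, Ube2j1 and Ube2g2 were below the floor on both arrays.

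By the probe each was read from, the remaining conjugating enzymes had ratios or bounds under 2-fold, or none. Ube2l3, which works with HECT and RING-between-RING ligases, read 70.8 and 99.3. A second Ube2l3 probe read 33.8, below the floor, and 94.9, at least 2.13-fold higher in fibers. Ube2r2, related to yeast CDC34 and a partner of SCF ligases, read 83.5 and 124. Ube2f, which passes NEDD8 to cullin 5, read 81.5 in epithelium and 45.4 in fibers. Ube2g1, at 91.0 and 61.5, had 2 further probes at 25.8 and 75.9 and at 24.9 and 75.9, which pointed to fibers. Ube2q1 also had probes of opposite direction, 14.8 and 73.0 for one, a bound of at least 1.64-fold, and 45.6 and 0.10 for another. Ube2ql1 read 76.3 and 56.2, and Ube2dnl2 50.7 and 41.3. The cell-cycle enzymes Ube2s and Ube2t were below the floor on both arrays, with Ube2t at 42.7 in epithelium just under it.

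The ubiquitin-specific proteases passed 2-fold equally often in both directions. Of 53 genes 22 (41.5%) were measured, against 33.9% of all genes. They were 10 on both arrays, 10 in fibers only and 2 in epithelium only, where all 6451 measured genes held 2308 in fibers only and 1157 in epithelium only. The log2 ratio of the proteases was positive in 11, negative in 7 and without direction in 4. There were 3 (13.6%) at 2-fold or more in each direction, against 15.5% of all measured genes in fibers and 18.5% in epithelium. The median log2 ratio of the proteases was 0.01. The largest ratios measured on both arrays, of Usp10 and Usp7, were of opposite direction.

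**Figure D2:**
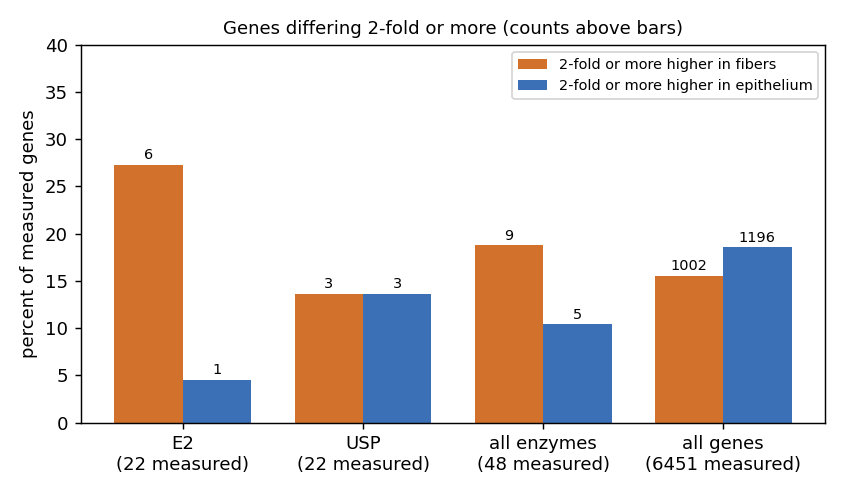
Percent of measured genes at 2-fold or more higher in fibers (orange) or epithelium (blue), for conjugating enzymes, ubiquitin-specific proteases, all 48 measured enzymes and all 6451 measured genes, with counts above the bars. Conjugating enzymes had 6 and 1, the proteases 3 and 3; scaled to housekeeping genes the conjugating enzymes had 0 and 6, and all measured genes 4.64% and 42.5%.

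Usp10, which binds the stress granule protein G3bp1, had the largest ratio among the enzymes whose chosen probe was above the floor on both arrays, at 56.8 in epithelium and 217 in fibers, 3.83-fold. Its other probes pointed the same way. One read 57.7 and 67.0, a smaller ratio of 1.16-fold, and the other 36.8, below the floor, and 59.4, at least 1.33-fold. G3bp1 itself read 132 in epithelium and 102 in fibers. Usp16, which removes ubiquitin from histone H2A, read 13.8 in epithelium, below the floor, and 136 in fibers, at least 3.05-fold. A second Usp16 probe, at -5.08 and -6.93, was below both floors. Usp19, anchored in the endoplasmic reticulum membrane, was below the floor in epithelium and read 126 in fibers, at least 2.82-fold, while a second Usp19 probe gave no direction at 2.88 and 43.3.

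The proteases listed under DNA damage and replication read lower in fibers. Of 5 such genes 4 were measured, all 4 with a negative log2 ratio and 1 of them, Usp28, in epithelium only. There were 2 at 2-fold or more higher in epithelium, where the share of all measured genes was 18.5%, and 2873 of the 6451 had a negative ratio. Usp47 was not on this list. Usp7, which acts on Mdm2 and p53, read 213 in epithelium and 63.3 in fibers, 3.37-fold higher in epithelium. Usp37, which stabilises cyclin A, read 129.9 and 46.4, 2.80-fold. The other Usp37 probes, at -0.12 and -1.85 and at -5.08 and -4.91, were below both floors. Usp1, which acts on PCNA and FANCD2, read 68.9 and 35.2, and Usp28, which stabilises Myc, read 47.7 and 26.1, the latter below the floor. Other probes did not share this direction: a second Usp7 probe read 46.6 and 51.2, a log2 ratio of 0.14, a further one gave no direction, and a second Usp1 probe read 42.7 and 53.3. Of 21 genes of DNA replication and mitosis 16 were measured and all 16 were lower in fibers, 12 reaching 2-fold. Their median log2 ratio was -1.66. The part of that difference in the protease values was not tested. Ube2c, a conjugating enzyme of mitosis left out by the rule, read 109 and 13.2, at least 3.38-fold higher in epithelium.

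Usp20 and Usp33 both bind the von Hippel-Lindau protein. Usp20 read 75.0 in epithelium and 8.06 in fibers, below the floor, at least 2.33-fold higher in epithelium. Usp33 read 84.6 and 103. Usp47, which also acts in DNA repair, was among the brightest proteases at 207.5 and 187, and 6 of its 7 probes were measured, with log2 ratios from -0.15 to 1.35. Usp9x read 21.0 and 54.4 and the nucleolar Usp36 34.8 and 63.3, each above the floor in fibers only. Usp6nl, at 50.7 and 51.2, and Usp50, at 48.8 and 52.2, were nearly equal on both arrays.

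Of the proteasome-bound deubiquitinating enzymes, Usp14 read 80.4 in epithelium and 48.3 in fibers, 1.66-fold higher in epithelium, and its second probe, at 65.9 and -2.87, pointed the same way. Uchl5 read 156 and 158. Psmd14, a proteasome-bound deubiquitinating enzyme outside the rule, went the other way from Usp14, at 80.4 and 168, 2.08-fold higher in fibers. Among the other hydrolases Uchl4, a rodent relative of Uchl3, read 81.5 and 49.1, 1.66-fold, with a second probe of no direction. Uchl1, abundant in neurons, read 19.0 and 46.4, at least 1.04-fold higher in fibers. Uchl3 was below the floor on both arrays. The Uchl1 value is a bound and sets no upper limit on its ratio.

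How far a gene's probes matched could be seen for 16 enzymes with several measured probes. In 10 of them the log2 ratios of the probes spanned 1 or more, and in 6 the probes had opposite signs: Usp7, Usp47, Ube2g1, Usp1, Ube2q1 and Ube2d3. The median span was 1.20. These spans include bounds and probes without direction entered as 0, so they cannot be set beside the 32.2% of genes above. The same measure was not computed over all genes. A bound and a probe without direction, as for Ube2n and Usp19, need not conflict. Only Usp7, Usp10, Usp47 and Usp33 had several probes above both floors. Of the 9 enzymes higher in fibers, 5 were bounds, and of the 5 higher in epithelium, 1 was.

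**Figure D3:**
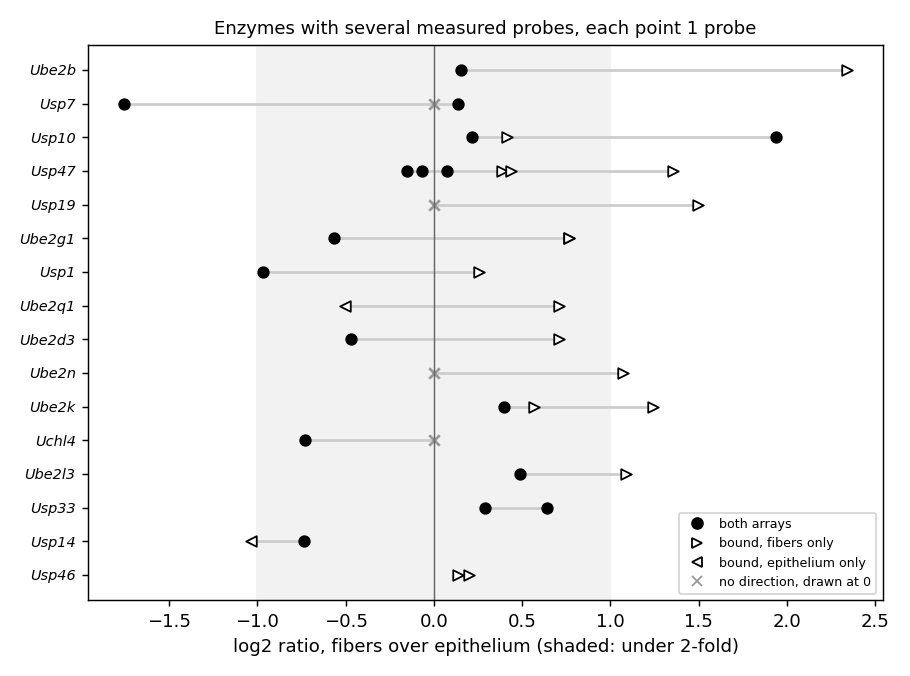
Log2 ratio of fibers over epithelium for each measured probe of the 16 enzymes with several measured probes; circles were above the floor on both arrays, triangles are bounds and crosses had no direction. The probes of Ube2b span 0.15 to 2.34 and those of Usp7 -1.75 to 0.14.

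Directions were also computed under other scalings. Of 20 housekeeping genes 18 were measured and 16 had a positive log2 ratio, with a median of 0.82. Scaled to them, ratios measured on both arrays moved towards epithelium by that amount. The enzymes then had 1 (2.08%) higher in fibers, Usp10 at a log2 ratio of 1.12, and 14 (29.2%) in epithelium. All measured genes moved likewise, with 4.64% higher in fibers and 42.5% in epithelium. The shift is smaller than the threshold of 2-fold, so the sign of an enzyme past 2-fold could not change with it.

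**Figure D4:**
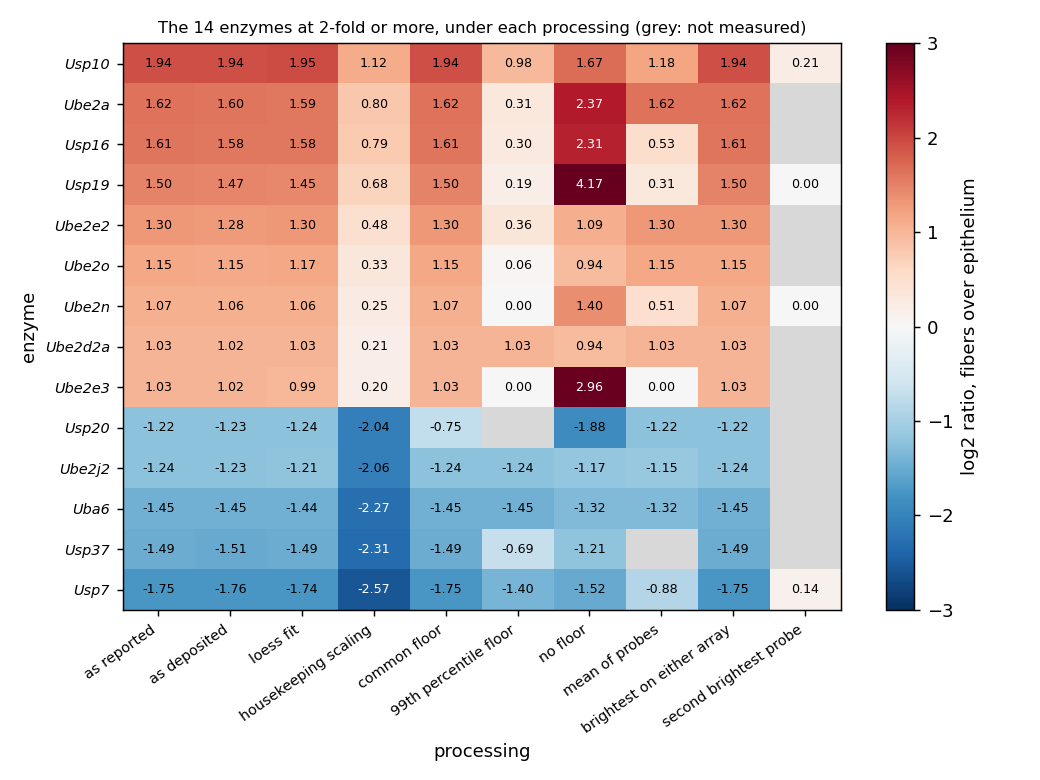
Log2 ratio of fibers over epithelium of the 14 enzymes at 2-fold or more (rows) under each processing (columns), with grey where the enzyme was not measured. Usp7 changes sign to 0.14 with its second brightest probe, and Usp10 falls to 0.21.

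Around these enzymes, the other genes of the pathway varied by list. Over all measured genes 15.5% were 2-fold or more higher in fibers and 18.5% in epithelium, and 2873 of 6451 had a negative ratio. Of 7 modifiers 4 were measured and all 4 had negative log2 ratios: Isg15, an interferon-induced modifier, read 263 in epithelium and 92.0 in fibers, and Sumo3 read 77.3 and 14.2, below the floor in fibers. Of 33 other deubiquitinating enzymes and proteases 22 were measured, 3 higher in fibers and 2 in epithelium. Cops5, the subunit of the COP9 signalosome that removes NEDD8 from cullins, read 9.92 and 157, at least 3.52-fold higher in fibers. Of 9 enzymes of ubiquitin-like modifiers outside the rule 4 were measured, and 1 passed 2-fold: Aktip, a conjugating enzyme variant, at 4.93 and 108. Sae1, a subunit of the SUMO-activating enzyme, read 3104.5 and 1862.

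Ligases past 2-fold lay in both directions. The shares over all measured genes were 15.5% in fibers and 18.5% in epithelium. Of 36 cullin-RING and anaphase-promoting complex genes 25 were measured, 6 higher in fibers and 3 in epithelium. The scaffold Cul3 read 24.9 and 317, at least 7.11-fold. Cul4a read 49.8 and 192, 3.85-fold. Of 26 HECT and RING-between-RING ligases 16 were measured, 5 higher in fibers and 3 in epithelium. Wwp2 read 17.9 and 277, at least 6.21-fold higher in fibers. Hectd2 read 255.5 and 27.1, at least 7.95-fold higher in epithelium. Of 41 other RING ligases 28 were measured, 6 higher in fibers and 2 in epithelium, and Uhrf1, a chromatin protein of DNA methylation in dividing cells on which Usp7 also acts, read 1194 and 149, 8.02-fold higher in epithelium. Of 13 cofactors of these proteases 6 were measured and 0 had a ratio or bound of 2-fold or more. Mdm2 read 363.5 and 424, and Nfrkb -6.06 and 84.5, a bound of at least 1.89-fold.

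The GC box was found in the 200 bases before the start of 28 of the 40 measured enzymes with a listed promoter (70.0%), against 54.9% of measured genes with one and 31.3% of all 27025 listed promoters. It was in 4 of 6 enzymes higher in fibers and 3 of 4 higher in epithelium. The E2F motifs TTTCGCGC, TTTGGCGC, TTTCCCGC and TTTGCCGC, searched on both strands, were in 2 of the 40, against 3.01% of measured genes and 1.63% of all. The MAF recognition motif TGCTGA was in 2 of the 40, against 526 of 5245 measured genes and 13.0% of all. A match is a description of letters in this window.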

How the data were processed

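Total RNA of each tissue was hybridised to an Illumina expression array, per the labels' protocols. The deposited values are linear intensities of 45281 probes, the lowest being -16. The sources used here do not give the background correction or normalization behind them. Probes were named through the platform annotation: 34885 had 1 symbol, 18 several and 10378 none. Of the enzymes' gene IDs 92 matched the reference table and 1 did not. No replicate depth is available, and 1 array per group limits the precision.

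Quantile normalization was applied to the linear values of both arrays, floors were set as described, and ratios were taken as log2 of fibers over epithelium (Python 3.11.15, numpy 2.4.6, pandas 2.3.3, statsmodels 0.14.6, matplotlib 3.10.9). The counting of differences was checked on simulated data.

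The planned rule, a gene's brightest probe over both arrays, did not settle how brightness is taken. Both readings were run, the mean of the arrays and the higher value on either array, and the main reading was changed more than once between them. The mean was kept after the counts of both had been seen, because the higher value on either array favours probes that differ between arrays. The other reading gave 10 enzymes higher in fibers and 5 in epithelium in place of 9 and 5, the addition being Ube2k, and is reported as an alternative.

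The enzymes named are those at 2-fold or more, all measured E1 and UCH enzymes, the 4 of E2 and of USP with the smallest ratios on both arrays, and those whose probes differ by 2-fold or more; others are given by role, chosen after their values were seen. The members and lists were chosen with earlier results of these data known. No test was made.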

Additional observations from a re-analysis of the deposited data

How the results depend on the processing

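The counts of enzymes at 2-fold or more (9 higher in fibers and 5 in epithelium; for conjugating enzymes 6 and 1) moved with several choices. Scaled to housekeeping genes they were 1 and 14, with 0 and 6 for conjugating enzymes. With the floor at the 99th percentile (111 and 80.7), which left 23 measured enzymes, they were 1 and 3, with 1 and 1 for conjugating enzymes. Of all measured genes 11.01% were then higher in fibers and 14.9% in epithelium. With no floor, where all 93 enzymes enter, the counts were 18 and 10, with 10 and 3. All genes then had 11.54% and 12.05%. With the mean of all probes, which left 36 measured enzymes, the counts were 5 and 3, with 4 and 1. All measured genes then had 13.86% and 15.77%. With the second brightest probe, available for 59 enzymes and measured for 16, the counts were 3 and 1, with 3 and 0. All measured genes then had 13.58% and 15.5%. At 1.5-fold the counts were 12 and 9, with 8 and 2. At 3-fold they were 3 and 1, with 1 and 0. With Ube2c included, 2 conjugating enzymes were higher in epithelium. Values as deposited gave 9 and 5, a loess fit 8 and 5, a common floor 9 and 4, and the probe brightest on either array, an alternative added after seeing the data, 10 and 5 (conjugating enzymes 7 and 1). Leaving out the 4 symbols that name no such enzyme, also added after seeing the data, changed no count. The ratio of Usp7 reversed to 0.14 with its second brightest probe. Of 114 alternative values of the 14 enzymes past 2-fold (the other named enzymes were not run one by one) 96 moved by less than the spread of silent probes, 17 by more and 1 reversed. The cause was not tested. Housekeeping scaling moved each of the 14 by 0.82, under the spread of 0.84, so its values were bound to count among the 96. Only 1 of the 9 enzymes higher in fibers was still past 2-fold under it. Many of the 96 did not move at all. The probe brightest on either array gave the reported value for all 14, and a common floor did so for all but Usp20. The mean of all probes could not differ for Ube2a, Ube2d2a, Ube2o, Ube2e2 and Usp20, which have 1 probe. The 96 are therefore no count of separate checks. No paired analysis was possible because there was 1 array per group. Signal over background limits the enzymes, since 45 of 93 were below the floor on both arrays.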
